A study of Mus musculus with 12 samples.

Results

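Deubiquitinating enzymes are the proteases that remove ubiquitin, or cut chains of it, from other proteins. The set described here was every protein-coding gene of the count table named Usp plus a number (with Usp9x), together with Cyld, Bap1, Uchl3, Uchl5, Otub1, Otud5, Otulin and Brcc3, and without Usp18 or any symbol ending in y. It held 52 of the 15555 genes in the table. Of these, 50 passed the filter on low counts and were among the 12671 genes tested. Usp51 and Usp44 did not pass it, and 3 more symbols of the rule (Usp13, Usp26 and Usp29) had no row in the table.

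The cells were mouse bone-marrow-derived macrophages of 4 genotypes with 3 libraries apiece: a wild-type control (WT), a Cbl knockout (Cbl-/-), a Cbl-b knockout (Cbl-b-/-) and a double knockout (DKO) labelled Cbl-/- and Cbl-b-/-. Marrow was cultured to day 9 with serum and with L-cell supernatant, which supplies CSF-1, and RNA came from the cells that adhered. The sources used here give no strain, sex or age of the animals, and no detail of the alleles or of any Cre driver. Cbl and Cbl-b are E3 ubiquitin ligases that attach ubiquitin to activated receptors, among them the CSF-1 receptor, so the design asks how macrophage RNA differs when either ligase or both are missing. The labels mention an equimolar pool of RNA but not what went into it, and do not say whether a replicate is an animal, so every p-value below rests on the spread between libraries alone, which can be technical.

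Ubiquitin is attached through an E1, an E2 and an E3 enzyme, and deubiquitinases reverse that step, so the fate of a protein depends on both sides. Chains joined through different residues of ubiquitin carry different messages: some send a protein to the proteasome, while K63-linked and linear chains build signalling platforms at receptors of innate immunity. In macrophages CYLD, OTULIN and A20 trim the chains that drive NF-kB, USP8 acts on receptors sorted at endosomes, and BRCC3 acts on the NLRP3 inflammasome. Several other members take ubiquitin off histones, or sit on the proteasome and recycle ubiquitin before the substrate is degraded.

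Total counts ran from 21048103 to 43946503 per library. Cbl RNA was at 136 to 143 CPM (counts scaled to library size) in WT, 49.3 to 54.0 CPM in Cbl-/- and 35.0 to 41.0 CPM in DKO. Cblb RNA was not reduced in the same way: it was at 55.5 to 62.2 CPM in WT, 49.4 to 54.5 CPM in the libraries called Cbl-b-/- and 68.0 to 73.7 CPM in the libraries labelled DKO. A deletion that leaves a transcript behind would not be seen in such counts, so directions drawn from these 2 groups refer to the libraries so labelled. The biological coefficient of variation, the spread between replicates beyond counting error, was 4.26% to 7.79% in the other genotypes and 11.9% in DKO, where the third library stood apart. Over all genes, the chi-square per degree of freedom was 10.2 between the other DKO libraries, and 44.7 and 55.3 between either of them and the third. All 10 macrophage markers were in the table, with a summed level of 20283 to 22289 CPM in WT and 17411 to 20633 CPM in DKO. Monocyte markers (6 of 6 in the table) summed to 56.5 to 61.9 CPM in WT and 153 to 208 CPM in DKO, and granulocyte markers (6 of 11, with Ly6g, Elane and Mpo among those without a row) to 12.5 to 15.0 CPM in WT and 73.6 to 93.4 CPM in DKO. Markers of osteoclasts (4 of 6) summed to 11.4 to 22.2 CPM in WT and 29.2 to 33.8 CPM in DKO, those of dendritic cells (6 of 7) to 1.11 to 1.36 and 3.10 to 3.40 CPM, and those of fibroblasts and endothelium (5 of 6) to 3.46 to 5.68 and 12.8 to 16.3 CPM. Single markers did not all follow these sums: mean F13a1 (monocyte) was 1.68 CPM in WT and 1.34 in DKO, and Csf3r (granulocyte) 10.1 and 8.08. Lyz2 alone gave 15674 CPM of the macrophage sum in WT. Within that list Mrc1 went from 55.8 CPM in WT to 15.2 in DKO and Mertk from 28.8 to 12.5. Cd14 went from 179 to 283 and Fcgr1 from 74.9 to 132. The 1 lymphocyte marker with a row stayed at or below 0.207 CPM in every library. In Cbl-/- the macrophage sum was 17523 to 18497 CPM, below every WT library, and it overlapped DKO. The Cbl-b-/- macrophage sum overlapped WT. Monocyte sums were 82.6 to 93.3 CPM in Cbl-/- and 77.7 to 86.7 CPM in Cbl-b-/-, above WT and below DKO. Granulocyte sums of both single knockouts overlapped WT. The part these cells may have in the differences described for Cbl-/-, Cbl-b-/- or DKO was not tested. In bulk RNA, fewer cells of a type and less RNA per cell cannot be told apart.

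Levels between genes are compared as CPM per kilobase of exon, in WT. The highest was Usp8, an enzyme of endosomal receptor sorting, at 40.7 CPM per kilobase. Usp1, which acts in DNA repair, followed at 36.2, Usp5, which takes apart free ubiquitin chains, at 34.3, Usp25 at 29.7 and Otulin at 26.3. Usp53 (0.430), Usp50 (0.0972) and Usp43 (0.0383) were the lowest members tested. The plot of levels per kilobase shows every member with a row. In it the 4 genotypes lie close together for nearly all genes, and the order of members spans a far larger range than any difference between genotypes.

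**Figure D1:**
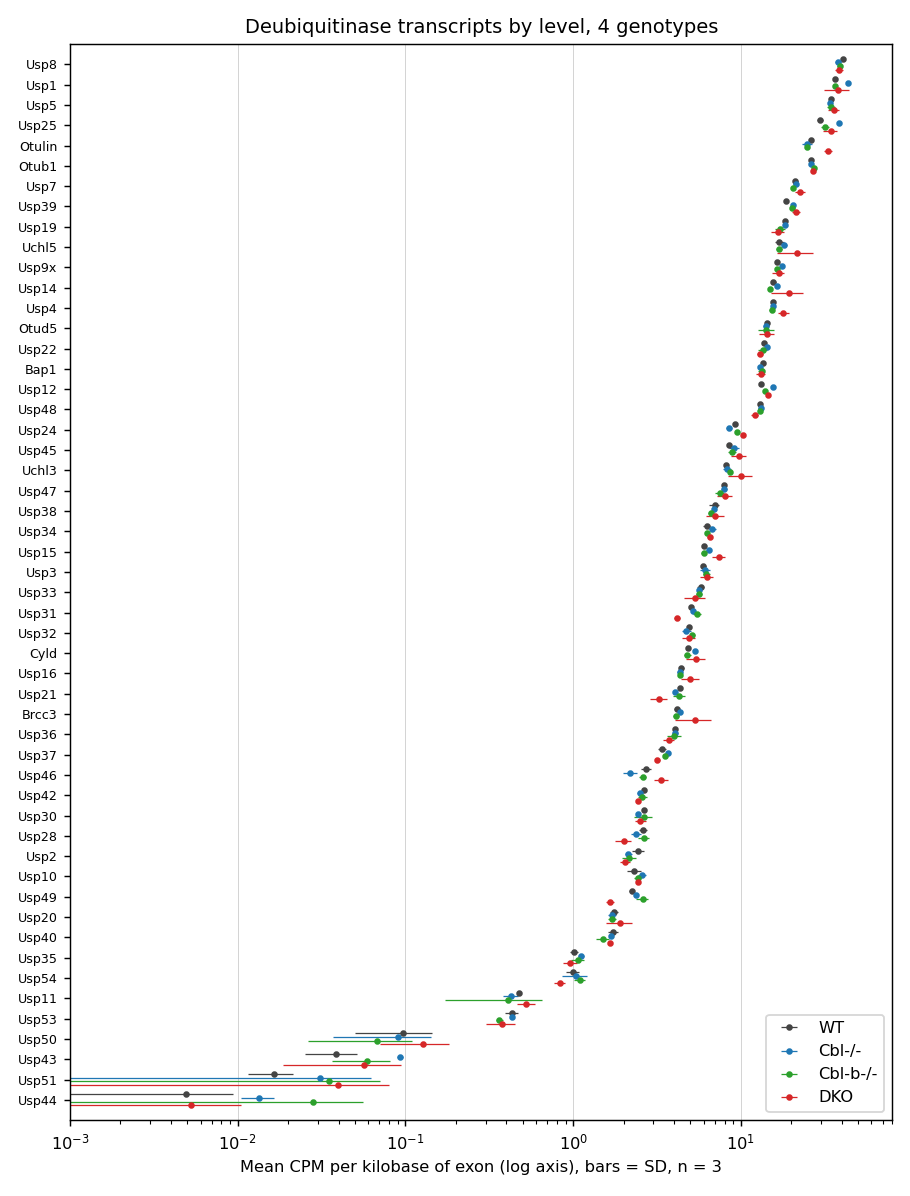
Mean level of each deubiquitinase in CPM per kilobase of exon (log axis), 1 point per genotype with bars of 1 SD over 3 libraries, shortened where they would reach 0. Usp8, Usp1 and Usp5 lead in WT at 40.7, 36.2 and 34.3, and the genotypes lie close together on this axis for most members.

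No member tested changed 2-fold or more past the threshold in any comparison, where 1.63% of all genes did so in Cbl-/-, 0.103% with the Cbl-b knockout and 6.31% with DKO, each against WT. The test was edgeR's quasi-likelihood test, with Benjamini-Hochberg adjustment over all 12671 genes and a threshold of 0.05. In Cbl-/- against WT 3 of 50 members passed, or 6%, where 9.87% of all genes did: Usp25 and Usp12 were higher (4%, where 5.68% of all genes were) and Usp46 lower (2%, where 4.19% were). In Cbl-b-/- against WT no member passed with edgeR, DESeq2 or limma voom, where 0.489% of all genes passed with edgeR (0.395% higher and 0.0947% lower). At an unadjusted p under 0.05 that comparison held 2 members, Usp40 and Usp49 (7.56% of all genes). In DKO against WT 16 of 50 passed, or 32%, where 35.4% of all genes did. The members thus passed at or below the share of all genes in each of these comparisons. The median size of their log2 change, sign aside, was 0.084 for the Cbl knockout, where it was 0.115 over all genes tested. It was 0.06 (all genes 0.073) for the Cbl-b knockout and 0.139 (all genes 0.201) for DKO.

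Many intervals were narrow. The 95% interval of the change lay inside 1.5-fold either way for 47 of 50 members after loss of Cbl, 47 after loss of Cbl-b and 42 with DKO. Among the 48 tested members whose mean log2 CPM reached 1, log2 changes ran from -0.31 (Usp46) to 0.38 (Usp25) in Cbl-/-, from -0.25 (Usp53) to 0.21 (Usp49) in Cbl-b-/-, and from -0.43 (Usp49) to 0.36 (Brcc3) in DKO. The plot of changes against WT shows the widening spread from the libraries labelled Cbl-b-/- to those labelled DKO.

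**Figure D2:**
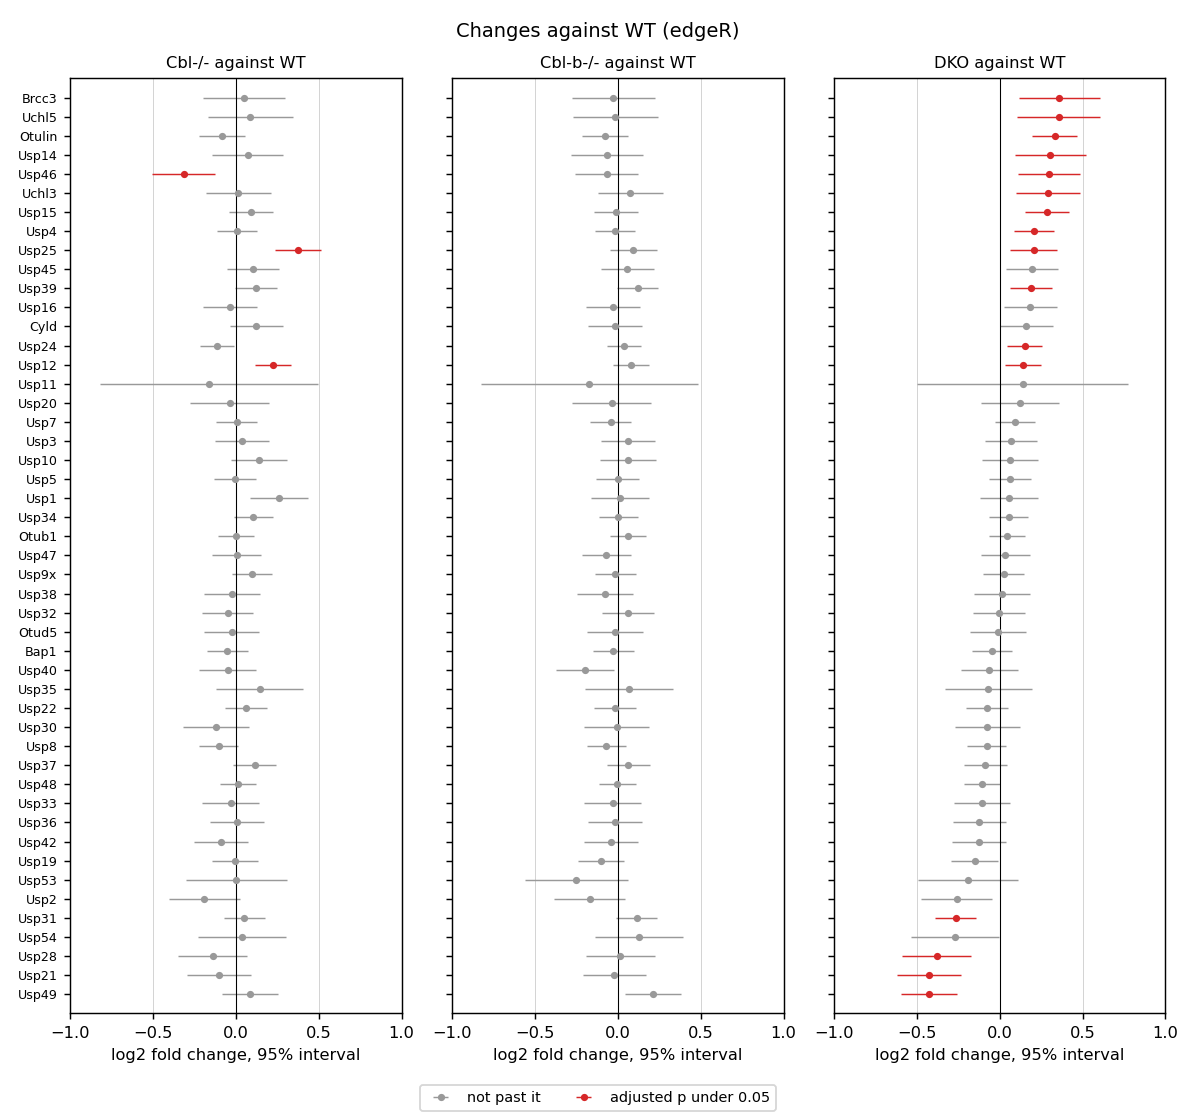
Log2 fold change against WT with 95% intervals from edgeR for the 48 members with a mean of over 2 CPM in WT, in 3 panels for Cbl-/-, Cbl-b-/- and DKO; red points passed an adjusted p of 0.05 and grey points did not. There are 3 red points in Cbl-/-, none in Cbl-b-/- and 16 in DKO, between -0.43 and 0.38 on the log2 scale.

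Usp25 had the larger rise of the members that passed in Cbl-/-. It is known to act on ubiquitin in cytokine and innate receptor signalling. Its gene (ENSMUSG00000022867) lies at chr16:77013706-77116780 in GRCm38. The WT libraries were at 156, 159 and 148 CPM, the Cbl-/- libraries at 198, 196 and 207 CPM, the Cbl-b-/- libraries at 158, 162 and 174 CPM, and the DKO libraries at 172, 164 and 198 CPM. Every Cbl-/- library lay above every WT library, and the DKO libraries also lay above WT, the third of them within the range of Cbl-/-. The rise in Cbl-/- was 0.38 on the log2 scale (SE 0.07, edgeR adjusted p = 0.0013) and it passed under each of the 14 alternative settings run. In DKO Usp25 rose by 0.21 (SE 0.07, adjusted p = 0.024), and without the third DKO library that value was 0.13 (adjusted p = 0.051).

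Usp12, which works with the WD-repeat proteins WDR48 and WDR20, also rose in Cbl-/-. It was at 60.7, 62.3 and 60.8 CPM in WT, at 71.1, 70.4 and 73.1 CPM in Cbl-/-, at 63.9, 66.7 and 63.9 CPM in Cbl-b-/-, and at 69.2, 65.6 and 67.8 CPM in DKO. No Cbl-/-, Cbl-b-/- or DKO library overlapped WT, and the Cbl-b-/- change of 0.08 did not pass. Against WT, Cbl-/- was higher by 0.22 on the log2 scale (SE 0.05, edgeR adjusted p = 0.0095). DKO was higher by 0.14 (SE 0.05, adjusted p = 0.044). The Cbl-/- call was lost without the first WT library and without the third Cbl-/- library, at up to adjusted p = 0.056 by edgeR. The DKO call was lost under 8 of 14 settings.

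Usp46, a close relative of Usp12 that binds the same WD-repeat partners, differed in sign between the genotypes. Its gene (ENSMUSG00000054814) lies at chr5:73998453-74068431 in GRCm38. It was at 20.2, 22.8 and 21.05 CPM in WT, 19.0, 15.9 and 16.6 CPM in Cbl-/-, 21.1, 20.6 and 19.3 CPM in Cbl-b-/-, and 24.4, 25.3 and 29.0 CPM in DKO. The Cbl-/- libraries lay below all WT libraries and the DKO libraries above all of them. Usp46 fell by 0.31 in Cbl-/- (SE 0.09, edgeR adjusted p = 0.035), a call that 6 of 14 settings lost, among them leaving out any 1 of the WT libraries. It rose by 0.30 in DKO (SE 0.09, adjusted p = 0.015), a call lost without the first WT library, where the change was 0.26. The antisense gene Usp46os2 covers 3.67% of its exon bases and was at 0.0318 CPM or less in every library.

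The members listed for a role in NF-kB, innate or inflammasome signalling were 12 tested genes. The role lists used here were drawn up with earlier results of these data known. Counts and medians by role therefore depend on which members were listed. In DKO 6 of them rose and 1 fell, where 19.1% of all genes rose and 16.3% fell, and their median log2 change was 0.15, beside -0.003 over all genes. The 6 were Otulin, Brcc3, Usp4, Usp12, Usp15 and Usp25, and Usp12 is counted again among the endocytosis members below. With libraries scaled to total counts, Otulin, Usp15 and Brcc3 of the 6 still passed. In a fit of only WT and DKO, Otulin, Usp15 and Usp4 of them did. Otulin, the enzyme specific for linear ubiquitin chains, gave the firmest rise. Its gene (ENSMUSG00000046034) lies at chr15:27542635-27630693 in GRCm38. The WT libraries were at 45.3, 42.9 and 45.2 CPM, the Cbl-/- libraries at 44.6, 39.1 and 42.1 CPM, the Cbl-b-/- libraries at 41.8, 42.9 and 41.6 CPM, and the DKO libraries at 52.2, 57.0 and 58.7 CPM. The 3 DKO libraries lay above all 9 others. Otulin rose 1.26-fold in DKO (0.33 on the log2 scale, SE 0.06, edgeR adjusted p = 0.0008).

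Usp15, which acts in RIG-I and transforming growth factor beta signalling, was at 102, 97.6 and 101 CPM in WT and at 119, 113 and 134 CPM in DKO. The DKO libraries lay above the WT libraries, and Usp15 rose by 0.29 (SE 0.06, edgeR adjusted p = 0.002). Its Cbl-/- libraries (110, 107 and 103 CPM) did not overlap WT either, at a change of 0.09 that did not pass. Usp4, a paralog of Usp15, was at 131, 135 and 135 CPM in WT and 151, 167 and 145 CPM in DKO, a rise of 0.21 (SE 0.06, adjusted p = 0.009). Cyld, which trims K63-linked and linear chains, was at 61.0, 62.4 and 59.6 CPM in WT and at 67.6, 59.7 and 77.03 CPM in DKO, so those groups overlapped. The Cyld change was 0.16 (SE 0.08, adjusted p = 0.11). Otud5, which acts on TRAF3, was at 74.3 ± 0.34 CPM (SD, n = 3) in WT and 73.9 ± 7.6 CPM in DKO, with a log2 change of -0.01 and a 95% interval from -0.18 to 0.16.

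Brcc3, the K63-specific enzyme of the BRISC and BRCA1-A complexes, had the largest log2 rise among the members that passed in DKO, 0.36 (SE 0.12, edgeR adjusted p = 0.023). Its libraries were at 34.4, 32.4 and 31.7 CPM in WT, 34.4, 33.0 and 34.7 CPM in Cbl-/-, 31.6, 33.8 and 31.3 CPM in Cbl-b-/-, and 37.7, 35.0 and 53.6 CPM in DKO. The third DKO library was the high one. Without it the Brcc3 change was 0.15 and did not pass (adjusted p = 0.085). Brcc3 also has a near-identical copy, Brcc3dc, so its counts are uncertain where reads could be split.

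Usp21, which acts on RIPK1 and on histone H2A, fell. It was at 21.2, 20.3 and 20.4 CPM in WT, 19.2, 18.6 and 19.8 CPM in Cbl-/-, 19.0, 19.9 and 22.3 CPM in Cbl-b-/-, and 15.7, 17.1 and 13.4 CPM in DKO. All DKO libraries lay below the others. The change in DKO was -0.42 on the log2 scale (SE 0.09, edgeR adjusted p = 0.0016).

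In the list of proteasome-bound and ubiquitin-recycling members, in which Uchl3 and Otub1 were also placed, 3 of 5 tested rose in DKO (19.1% of all genes). The median log2 change of the list was 0.293, beside -0.003 over all genes. None of the 3 passed with total counts or in a fit of only WT and DKO. Usp14, a reversible proteasome-bound enzyme, was at 135, 126 and 129 CPM in WT and at 140, 140 and 200 CPM in DKO. Uchl5, a proteasome-bound hydrolase, was at 52.8, 47.7 and 48.1 CPM in WT and at 55.3, 53.5 and 81.1 CPM in DKO. Uchl3, a hydrolase that cleaves small adducts from ubiquitin and NEDD8, was at 32.0, 31.1 and 31.1 CPM in WT and at 34.1, 35.5 and 45.7 CPM in DKO. All 3 genes were highest in the third DKO library. They are among 7 of 50 members (14%) for which that library lay at least 1.2-fold above both other DKO libraries, where 13.5% of all genes did.

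The rises were 0.30 for Usp14 (SE 0.10, edgeR adjusted p = 0.028), 0.36 for Uchl5 (SE 0.12, adjusted p = 0.029) and 0.29 for Uchl3 (SE 0.09, adjusted p = 0.019). Without the third DKO library they were 0.11 (adjusted p = 0.042), 0.14 (0.085) and 0.15 (0.075), so only the Usp14 call held. Usp14 shares 26% of its exon bases with Thoc1 on the opposite strand. Thoc1 was at 53.7 ± 1.5 CPM (SD, n = 3) in WT and 58.3 ± 12 CPM in DKO, and strand use in counting is unknown here. Uchl3 has a near-identical copy, Uchl4. Usp5, the recycler of free chains, was at 158 ± 3.4 CPM (SD, n = 3) in WT and 165 ± 12 CPM in DKO, and Otub1, which inhibits the E2 enzyme UBE2N, at 66.2 ± 0.91 and 68.2 ± 1.6 CPM. Neither passed.

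Of 16 tested members that act on histones, chromatin or DNA repair, none rose and 3 fell in DKO, where 19.1% of all genes rose and 16.3% fell. They were Usp49 and Usp28 beside Usp21, and the median log2 change of the group was -0.006. Usp49, known for removing ubiquitin from histone H2B, lies at chr17:47630690-47686738 in GRCm38 (ENSMUSG00000090115). It was at 18.5, 19.8 and 19.0 CPM in WT, 20.1, 20.8 and 20.01 CPM in Cbl-/-, 21.9, 20.6 and 24.2 CPM in Cbl-b-/-, and 13.3, 14.7 and 14.7 CPM in DKO. The Cbl-/- and Cbl-b-/- libraries all lay above WT and the DKO libraries all below it. Usp49 fell by 0.43 in DKO (SE 0.08, edgeR adjusted p = 0.00052). It shares 51.2% of its exon bases with Gm20517 on the same strand. Gm20517 counts were low and did not move with it: 3.99 ± 0.34 CPM in WT and 4.70 ± 1.1 CPM in DKO (SD, n = 3). How reads in the shared exons were counted is not known, so Gm20517 cannot show whether those reads moved.

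Usp28, a stabiliser of MYC and of DNA damage response proteins, was at 16.1, 15.0 and 14.4 CPM in WT and at 11.7, 10.4 and 12.9 CPM in DKO, without overlap, a change of -0.38 (SE 0.10, edgeR adjusted p = 0.0066). Other members of the group did not pass. Bap1, which acts on histone H2A, was at 63.2 ± 0.54 CPM (SD, n = 3) in WT and 61.3 ± 3.7 CPM in DKO. Usp7, which acts on p53 and MDM2, was at 164 ± 5.4 CPM in WT and 175 ± 12 CPM in DKO. Usp1 was at 139, 132 and 134 CPM in WT and at 165, 157 and 164 CPM in Cbl-/-, without overlap, and its change of 0.26 was at adjusted p = 0.054 by edgeR.

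The endocytosis and sorting members were 7 tested genes, of which Usp12 and Usp46 rose in DKO (19.1% of all genes), both calls being lost with total counts. Usp8 did not pass: it was at 170, 176 and 166 CPM in WT, 156, 155 and 165 CPM in Cbl-/-, 169, 156 and 163 CPM in Cbl-b-/-, and 164, 152 and 168 CPM in DKO. The Cbl-/- libraries of Usp8 lay below those of WT at a change of -0.10 (SE 0.06, edgeR adjusted p = 0.32), and the 95% interval in DKO ran from -0.20 to 0.04. Usp9x, which acts on endocytic adaptors, was at 248 ± 5.5 CPM (SD, n = 3) in WT and 253 ± 21 CPM in DKO, with a change of 0.02.

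Usp31, Usp24, Usp34, Usp37 and Usp40 were in no role list. Usp31 (ENSMUSG00000063317, chr7:121642021-121707253 in GRCm38) was at 52.5, 51.7 and 50.9 CPM in WT, 54.7, 52.4 and 53.7 CPM in Cbl-/-, 53.9, 54.7 and 59.6 CPM in Cbl-b-/-, and 44.6, 41.2 and 43.4 CPM in DKO. The DKO libraries lay below all others, and Usp31 fell by 0.26 against WT (SE 0.06, edgeR adjusted p = 0.0022). Usp24 was at 114, 113 and 115 CPM in WT and at 127, 126 and 126 CPM in DKO, a rise of 0.15 (SE 0.05, adjusted p = 0.025). Usp39, a splicing protein of the family with no known ubiquitin cleavage, rose by 0.19 (SE 0.06, adjusted p = 0.02), and the other 3 members of its group, Usp50, Usp53 and Usp54, did not pass. Usp19, Usp30 and Usp35, linked to the endoplasmic reticulum, mitochondria and peroxisomes, did not pass either.

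The plot of the 16 members called in DKO gives each library. It shows the third DKO library alone at the far end for Brcc3, Uchl5, Usp14 and Uchl3, and the 3 DKO libraries together for Otulin, Usp49 and Usp31.

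**Figure D3:**
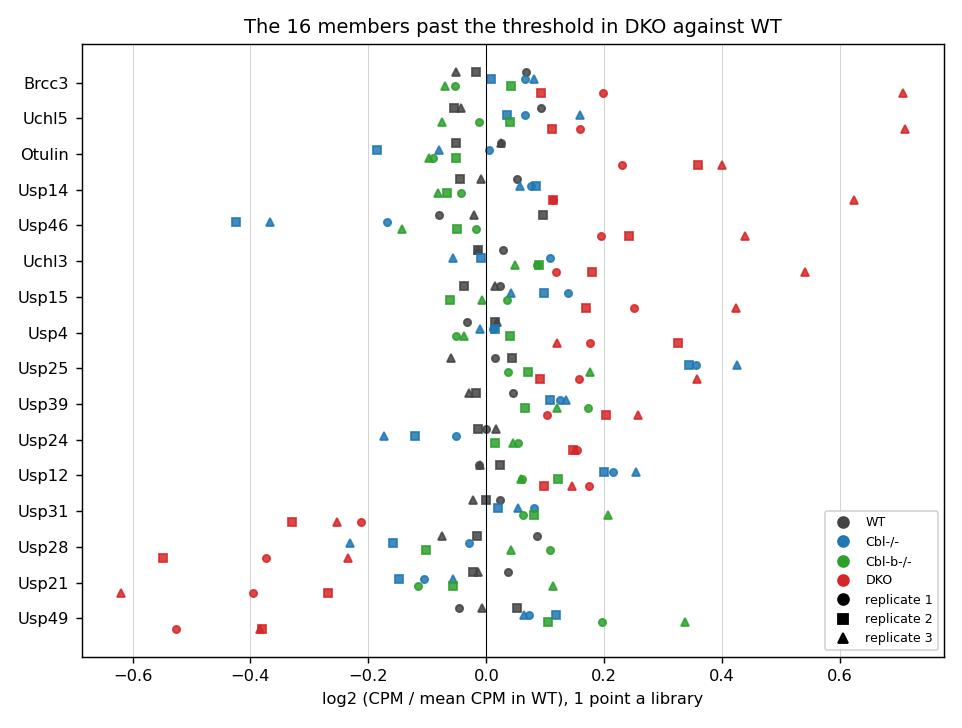
Log2 ratio of each library's CPM to the WT mean (x axis) for the 16 members that passed in DKO against WT (1 row a gene), with colours for genotypes and marker shapes for replicates. For Otulin all 3 DKO libraries (52.2 to 58.7 CPM) lie right of the rest (39.1 to 45.3 CPM), while for Brcc3 the third DKO library, at 53.6 CPM, lies apart from the others at 35.0 and 37.7 CPM.

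Of the 16 calls in DKO against WT, 12 were higher (24% of 50 members, where 19.1% of all genes were higher) and 4 lower (8%, where 16.3% were lower). Otulin, Usp15, Usp31, Usp21, Usp28 and Usp49 passed under each of the 14 settings run, 6 of the 16. The main fit shares its estimate of spread across genotypes, while the spread between libraries was widest in DKO. In a fit of only WT and DKO, Usp4, Usp15, Otulin and Usp46 were the members still higher, where 1990 of 12484 genes were. The same 4 members were lower there, where 1592 genes were. With libraries scaled to total counts rather than by trimmed means (TMM), 3 members were higher and 9 lower, and the median log2 change of all genes was -0.073 rather than -0.003. Of all 12671 genes, 1773 were higher and 2873 lower under that scaling. Leaving out 1 library ended several calls. Without the first WT library the calls of Usp25, Usp12, Usp24 and Usp46 were lost, at log2 changes of 0.13 to 0.26. Without the second WT library those of Usp39, Uchl5, Usp14, Usp12, Usp24, Uchl3 and Brcc3 were lost (0.14 to 0.35), and without the third WT library those of Usp25, Usp39, Uchl5, Usp14, Usp12, Uchl3 and Brcc3 (0.13 to 0.34). Without the first DKO library Usp12 (0.12) and Usp24 (0.15) were lost. Without the third DKO library Usp25, Uchl5, Uchl3 and Brcc3 were lost, at 0.13 to 0.15, where they had been 0.21 to 0.36. The DKO and WT libraries did not overlap for 23 members (46%), where this held for 46.5% of all genes. The Cbl-/- and WT libraries did not overlap for 19 members (38%, against 37.6% of all genes), and the Cbl-b-/- and WT libraries for 8 (16%, against 15.1%).

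Against Cbl-/- the DKO libraries differed in 11 of 50 members (22%), where 29.6% of all genes passed, and 0 of them by 2-fold or more (4.91% of all genes). The libraries of the pair did not overlap for 19 members (38%, against 42.7% of all genes). There 7 were higher (14%, against 16% of all genes) and 4 lower (8%, against 13.6%). Usp46 had the largest difference, at 0.61 higher on the log2 scale (SE 0.09, edgeR adjusted p = 8.1e-05), followed by Otulin at 0.41 (SE 0.07, adjusted p = 0.00015). Usp24 was 0.26 higher (SE 0.05, adjusted p = 0.00065), Uchl3 0.28 higher (SE 0.09, adjusted p = 0.03) and Usp16, which acts on histone H2A, 0.22 higher (SE 0.08, adjusted p = 0.041). Usp4 was 0.20 higher (SE 0.06, adjusted p = 0.012) and Usp15 0.19 higher (SE 0.06, adjusted p = 0.029). The 4 lower differences were -0.51 for Usp49 (SE 0.08, adjusted p = 0.00014), -0.32 for Usp21 (SE 0.09, adjusted p = 0.014), -0.32 for Usp31 (SE 0.06, adjusted p = 0.00069) and -0.20 for Usp37 (SE 0.06, adjusted p = 0.022). Usp46, Otulin, Usp24, Usp31 and Usp49 passed under each of the 14 settings. The calls of Uchl3, Usp15 and Usp16 were lost without the third DKO library (0.13, 0.12 and 0.11), and that of Usp4 without the second (0.14). Those of Uchl3, Usp15, Usp16 and Usp37 were lost without the second Cbl-/- library (0.27, 0.19, 0.20 and -0.21). Without the third Cbl-/- library these 4 (0.24, 0.17, 0.21 and -0.19), Usp4 (0.19) and Usp21 (-0.30) were lost, and without the first Usp16 (0.24) and Usp37 (-0.21). With total counts the split was 3 higher and 13 lower, where 1362 and 2747 of all 12671 genes were. This comparison and that with WT share the DKO libraries.

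The departure of DKO from the sum of the 2 single knockouts was tested with a contrast that takes the Cbl-/- and Cbl-b-/- changes away from the DKO change. It passed in 5 of 50 members (10%), where 15.7% of all genes passed, and in 0 of them by 2-fold or more (3.68% of all genes). Otulin, Usp46 and Usp24 lay above the sum (6%, against 8.39% of all genes) and Usp31 and Usp49 below it (4%, against 7.28%). With total counts, 2 members lay above the sum and 8 below it, where 711 and 1719 of all 12671 genes did. The single changes of Otulin were both -0.08 and that in DKO was 0.33, a departure of 0.49 (SE 0.09, edgeR adjusted p = 0.0016). For Usp46 the changes were -0.31, -0.07 and 0.30, and the departure was 0.68 (SE 0.13, adjusted p = 0.0015).

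Usp49 went the other way, with 0.09 and 0.21 in the single knockouts and -0.43 in DKO, a departure of -0.73 (SE 0.11, edgeR adjusted p = 0.00033). Usp31 changed by 0.05, 0.12 and -0.26, a departure of -0.43 (SE 0.08, adjusted p = 0.0019). Usp24 had the smallest departure that passed, 0.23 (SE 0.07, adjusted p = 0.035), and lost its call under 12 of 19 settings, at 0.22 to 0.23 without any 1 WT library and 0.20 to 0.24 without Cbl-/- 2, Cbl-/- 3, DKO 1 or any 1 Cbl-b-/- library. The other 4 passed under all 19. The plot of the sum against the DKO change sets these genes apart from the line of equality.

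**Figure D4:**
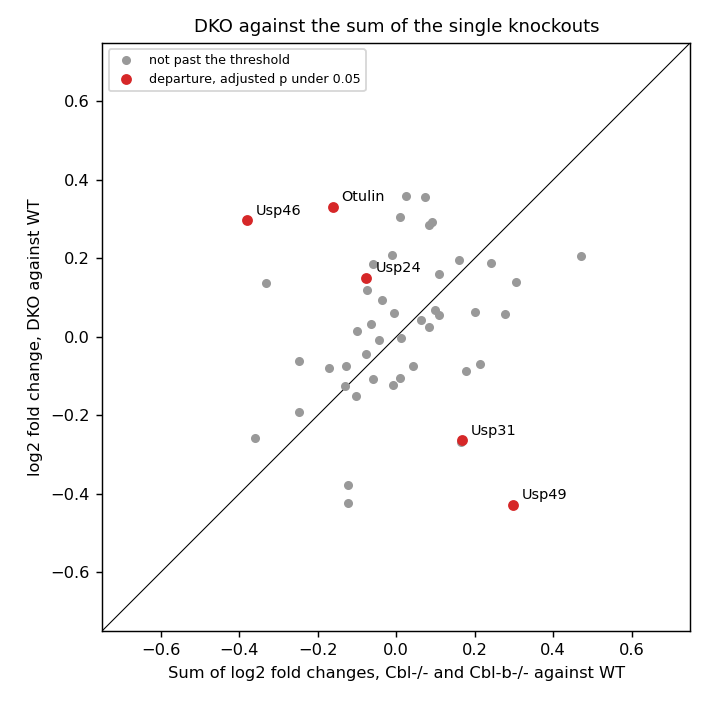
Sum of the Cbl-/- and Cbl-b-/- log2 changes (x axis) against the DKO log2 change (y axis), all against WT, 1 point per member, with members that passed the test of the departure named. Otulin and Usp46 lie above the line of equality, Usp49 and Usp31 below it.

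The 250 bases before the RefSeq start of these 4 genes (GRCm38.p6) are given because their departures passed under every setting. Capitals mark a match, on either strand, to 1 of 4 motifs searched: the interferon-stimulated response element core (GAAA, then 2 bases of any kind, then GAAA), an NF-kB site (GGG, then 2 bases of any kind, then TTTCC), the antioxidant response element core TGACNNNGC, and GAGGAAGT, the ETS core that PU.1 prefers. The windows are chr15:27630694-27630943 (minus strand) for Otulin, chr5:74068412-74068661 (minus) for Usp46, chr7:121707443-121707692 (minus) for Usp31 and chr17:47630440-47630689 (plus) for Usp49, each printed 5′ to 3′.
Otulin: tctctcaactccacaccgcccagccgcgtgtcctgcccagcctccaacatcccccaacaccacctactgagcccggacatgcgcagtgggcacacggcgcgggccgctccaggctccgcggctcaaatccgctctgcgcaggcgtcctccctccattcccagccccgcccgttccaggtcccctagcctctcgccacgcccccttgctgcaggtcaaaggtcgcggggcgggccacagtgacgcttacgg
Usp46: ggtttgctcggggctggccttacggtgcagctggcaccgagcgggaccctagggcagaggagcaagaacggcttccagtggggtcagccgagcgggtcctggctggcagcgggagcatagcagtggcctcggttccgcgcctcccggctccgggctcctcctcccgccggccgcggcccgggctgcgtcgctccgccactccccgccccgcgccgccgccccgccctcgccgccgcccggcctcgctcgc
Usp31: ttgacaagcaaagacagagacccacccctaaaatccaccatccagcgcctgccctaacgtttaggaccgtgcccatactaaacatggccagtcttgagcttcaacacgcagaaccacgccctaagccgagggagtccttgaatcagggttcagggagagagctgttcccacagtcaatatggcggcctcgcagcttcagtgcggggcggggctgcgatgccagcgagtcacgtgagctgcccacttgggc
Usp49: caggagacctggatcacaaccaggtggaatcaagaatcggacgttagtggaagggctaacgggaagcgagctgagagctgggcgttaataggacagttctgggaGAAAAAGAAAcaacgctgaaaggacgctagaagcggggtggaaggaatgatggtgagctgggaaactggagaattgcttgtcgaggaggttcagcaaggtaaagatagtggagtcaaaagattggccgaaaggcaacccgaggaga
Of the 4, only the Usp49 window held a match, to the interferon-stimulated response element core. Among 41 members with a window, that motif occurred in 1 (2.44%), where 2.98% of all 32851 RefSeq windows held it, the NF-kB motif in 1 (Cyld, against 1.41%), the antioxidant motif in 7 (17.1%, against 10.2%) and the PU.1 motif in 0 (against 2.44%). A match is a description of letters, not of binding. The members' windows had a median GC content of 65.2%, where all windows had 52.4%. The set of all windows was not limited to protein-coding genes or to genes with reads here. It was counted by window and the members by gene, so the 2 sets are not alike.

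Other genes of the pathway were read from 4 lists. The first list held deubiquitinases outside the set and relatives such as Cops5, Eif3f, Senp8 and Pan2, so its counts are not of deubiquitinases alone. Among its 32 tested genes, 10 rose and 2 fell in DKO, where 19.1% of all genes rose and 16.3% fell. With total counts 8 rose and 5 fell, and without the first WT library 1 fell. The interferon-induced Usp18, which removes the ubiquitin-like ISG15, rose 3.48-fold in DKO (1.80 on the log2 scale, SE 0.15, edgeR adjusted p = 3e-07). Tnfaip3, encoding A20, rose by 1.24 in DKO (SE 0.09, adjusted p = 2.8e-08). Uchl1, a hydrolase best known from neurons, rose 14.3-fold in Cbl-/-, from 14.1 ± 1.7 to 201 ± 5.6 CPM (SD, n = 3), and was at 24.6 ± 1.8 CPM in DKO. In Cbl-/- 2 of the 32 rose, Uchl1 and Tnfaip3, and 0 fell, where 5.68% of all genes rose and 4.19% fell. These changes of Usp18, Tnfaip3 and Uchl1 were each larger than any that passed against WT among the 50 members, whose log2 changes past the threshold lay between -0.43 and 0.38.

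Of 13 genes in the list of modifiers and the E1 enzymes that activate them, 7 rose and 0 fell in DKO, with a median log2 change of 0.211 (with total counts 5 rose and 0 fell), where 19.1% of all genes rose and 16.3% fell. Uba7, the E1 for ISG15, rose by 0.40 (SE 0.07, edgeR adjusted p = 0.00054). In Cbl-/- 1 rose (5.68% of all genes), Sae1, an activator of SUMO, by 0.30 (SE 0.05, adjusted p = 0.00067).

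Of 27 tested partner subunits and adaptors, 3 rose and 3 fell in DKO, where 19.1% of all genes rose and 16.3% fell. Uimc1, encoding RAP80 of the BRCA1-A complex, rose by 1.27 (SE 0.15, edgeR adjusted p = 3.2e-05), from 39.7 ± 0.55 CPM in WT to 95.7 ± 30 CPM in DKO (SD, n = 3). G3bp1, a partner of USP10, rose by 0.17 in DKO and by 0.24 in Cbl-/-. Foxk1 and Mbd6, partners of the BAP1 complex, fell by 0.35 and 0.47. With total counts the split in DKO was 1 higher and 5 lower, and without any 1 WT library 1 partner was higher. G3bp1 was the partner that passed in Cbl-/-, and none did without the second WT library or the third Cbl-/- library. Among 25 genes of linear and K63 ubiquitin signalling, 6 rose and 2 fell in DKO (6 and 7 with total counts, and 4 fell without the third DKO library) against the same shares of all genes, and 4 rose in Cbl-/- (5.68% of all genes). Tnip1, an A20 partner that binds ubiquitin, rose by 0.77 in Cbl-/- and 0.87 in DKO, and Birc3, an E3 ligase of the same pathway, by 0.51 and 0.73. Traf3, an adaptor that OTUD5 acts on, rose by 0.49 and 0.43, and Nod2, a sensor of bacterial peptides, by 0.91 and 1.204. In Cbl-b-/- Birc3 was the 1 gene of these lists that passed by edgeR, with a rise of 0.39 (SE 0.06, adjusted p = 0.0043), and 2 passed without the third Cbl-b-/- library.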

How the data were processed

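RNA was measured in 12 libraries of mouse macrophages. The authors deposited whole-number read counts per gene, not normalized. The build was GRCm38.p5, per the submitters' processing notes. Aligner, counter, strand setting and treatment of multi-mapped reads: not given in the sources used here. Per the labels' protocols the libraries were made with a stranded TruSeq kit. Each of the 15555 genes had at least 1 count in WT 1, so genes without reads there were not analysed here. Symbols, positions and exon lengths came from GENCODE M21.

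Counts were fitted with edgeR 4.0.16 in R 4.3.3 (filterByExpr, TMM factors, robust quasi-likelihood, 1 mean per genotype, all 12 libraries), and p-values were adjusted over 12671 genes by Benjamini-Hochberg with a threshold of 0.05. CPM were computed with TMM factors. Depth was 27822954 to 42007454 counts a library for WT, 23892790 to 35129318 for the Cbl knockout, 21048103 to 34099547 for the Cbl-b knockout and 32863268 to 43946503 for DKO. The scripts were tested on simulated data. Alternatives were DESeq2 1.42.0, limma 3.58.1 (voom), other scalings and filters, only the genotypes compared, a replicate block and leaving out each library.

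The members and the gene lists were chosen with earlier results of these data known. Members were named where they passed and their mean log2 CPM reached 1 (up to 12 each way against WT, up to 5 in other comparisons), 12 were named whatever their values, as were the 5 highest and 3 lowest by level in WT, and of each pathway list up to 4 genes with the smallest adjusted p. Usp4 and Usp15 (DKO against Cbl-/-), Usp19, Usp30, Usp34, Usp35, Usp40 and Usp54 were named to complete a count, after their values were seen. Promoter windows came from RefSeq (GRCm38.p6), 41 matched by symbol; none was printed for genes on chromosome 18. Some genes of the pathway lists that the naming rule picks are not reported here.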

Additional observations from a re-analysis of the deposited data

Results flagged for a closer look

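In 5 members the change in DKO differed from the sum of the changes in both single knockouts by edgeR's test of that difference (adjusted p 0.00033 to 0.035, n = 3 libraries a genotype), where 15.7% of all genes did so. On the log2 scale the departure was -0.73 for Usp49, 0.68 for Usp46, 0.49 for Otulin, -0.43 for Usp31 and 0.23 for Usp24. For Usp49 and Usp31 all 6 single-knockout libraries lay above the WT mean and all 3 DKO libraries below it. For Usp31 the second Cbl-/- library (52.39 CPM) was still below the first WT library (52.54 CPM). For Otulin all 3 DKO libraries lay above the other 9. These genes were picked by a test on the same libraries, so such separation is no separate evidence. How many of all genes show these patterns was not counted. The summed markers of monocytes and granulocytes were also higher in DKO than in the other genotypes, though F13a1 and Csf3r of those lists were not higher than in WT. The part of such cells in these departures was not tested.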

How the results depend on the processing

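The counts of members that passed moved with the scaling, the libraries in the fit and single libraries, while no named value that passed changed sign: of 2236 values of named members under alternatives, 2100 kept their side of the threshold, 90 no longer passed, 46 newly passed and 0 reversed. The 2236 include values of members that did not pass in the main fit, and those could not lose a call. All 90 losses fell among the 3 calls in Cbl-/-, 16 in DKO against WT, 11 against Cbl-/- and 5 in the departure. Of these calls 1, 6, 5 and 4 held under every setting. Of 336 counts for the pathway lists, 312 stayed within 1.5 times and 24 moved, with a count of 0 in both fits scored as unchanged. With total counts, members higher in DKO against WT went from 12 to 3 and lower from 4 to 9; against Cbl-/- they went from 7 to 3 higher and from 4 to 13 lower, and below the sum from 2 to 8. Under that scaling the median log2 change of all genes was -0.073, -0.081 and -0.106 in these 3 comparisons, where it was -0.003, 0.007 and 0.004 with TMM. That scaling put 1773 of 12671 genes higher and 2873 lower in DKO against WT, 1362 and 2747 against Cbl-/-, and 1719 below the sum. Fits of only the genotypes compared gave 5 higher in Cbl-/- (2 in the fit of all libraries), where 1484 of 12232 genes were higher. They gave 4 higher in DKO against WT (1990 of 12484 genes) and 3 against Cbl-/- (1644 of 12359 genes). DESeq2 put 4 below the sum, where it put 1086 of 12671 genes.

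Leaving out 1 library at a time gave 1 to 2 higher and 0 to 1 lower in Cbl-/-, 5 to 16 higher and 4 to 7 lower in DKO against WT, 3 to 10 higher and 3 to 11 lower in DKO against Cbl-/-, and 2 to 6 above and 2 to 5 below the sum. Of the 12823 to 12905 genes tested in these fits, 415 to 567 were higher and 318 to 411 lower in Cbl-/-. In DKO against WT 1834 to 2563 genes were higher and 1521 to 2234 lower, and against Cbl-/- 1529 to 2285 and 1301 to 2047. Above the sum lay 789 to 1443 genes, and below it 659 to 1337. The lowest counts of members higher in DKO (5) came without WT 2 or WT 3. Without DKO 3, 7 were lower than WT, 11 lower than Cbl-/-, and 5 lay above and 5 below the sum; without DKO 2, 6 lay above it. Without WT 1 or Cbl-/- 3, 1 was higher in Cbl-/-. Without Cbl-/- 2 or 3, 4 or 3 were higher in DKO than in Cbl-/-.

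The replicate numbers did not pair the libraries: over 18 same-number pairs the correlation of deviations ran from -0.054 to 0.0519, and 3 of 12 libraries correlated best with their own number. With the replicate block, 2 members were higher and 0 lower in Cbl-/-, 11 and 4 in DKO against WT, 7 and 4 against Cbl-/-, and 2 and 2 in the departure. Of all 12671 genes, that fit put 669 higher and 470 lower in Cbl-/-, and 2306 and 1974 in DKO against WT. Against Cbl-/- it put 1921 and 1656, and in the departure 980 and 835. Low counts limit Usp50 and Usp43, whose intervals reached beyond 2-fold in every comparison.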
